A study of Arabidopsis thaliana with 12 samples.

Results

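PSB27 (AT1G03600) and LPA19 (AT1G05385) are the Arabidopsis thaliana genes for the Psb27-type proteins of the thylakoid lumen, the space enclosed by the photosynthetic membrane of the chloroplast. The 2 genes were chosen by name, with their values on these arrays already known, from a table of 3439 probes. Each had 1 probe annotated to that gene alone, and neither was found on a probe shared with other genes. Probe 2306 measured PSB27 and probe 4071 measured LPA19. Both locus names begin with AT1G, which places them on chromosome 1.

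Total RNA was measured on 6 arrays of the psan mutant and 6 arrays of wild type (WT), all of ecotype Columbia 0. The psan mutant lacks PSI-N, a small subunit on the lumen side of photosystem I, the complex that passes electrons from plastocyanin to ferredoxin. The comparison asks which transcripts differ when that subunit is missing. The kind of mutation, the number of mutant lines, the tissue, the age of the plants and how they were grown are not given here. No label ties the arrays to separate plants, so each error and p-value covers variation from array to array, which could be purely technical.

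Photosystem II splits water and is rebuilt continually, because its D1 reaction centre protein is damaged by light and replaced. Psb27 proteins are small helical proteins that, in cyanobacteria, bind photosystem II intermediates on the lumen side before the manganese cluster is assembled. In Arabidopsis, PSB27 is known for its part in the recovery of photosystem II after strong light. LPA19 is known for its part in the maturation of D1, whose precursor is trimmed at its carboxyl end in the lumen. They are therefore homologues that act at different steps of the same assembly and repair cycle.

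Signals were deposited as linear intensities. The labels were first checked with PSAN (AT5G64040), which encodes PSI-N and had an intensity of 0.176 ± 0.0697 in psan and 6.30 ± 1.27 in WT (SD, n = 6 each), with no overlap between the groups. Between 6.19% and 10.8% of probes were at 0 on a psan array, and between 4.68% and 15.1% on a WT array. On every array the highest deposited intensity was 100. The mean intensity was 0.904 to 0.980 on the psan arrays and 0.834 to 0.979 on the WT arrays. The median log2 intensity of the probes above 0 was -1.89 to -1.68 on the psan arrays and -2.88 to -2.27 on the WT arrays. The deposited arrays thus shared their maximum but not their median, so the shift between the groups was not the same at all brightness levels. For arrays, their number limits the precision. Within each group, arrays 1 and 2, 3 and 4, and 5 and 6 were more alike than other arrays of that group and may be repeat measurements of 1 sample. Over 2243 probes, the deviations of such arrays from the group mean correlated with r from 0.0331 to 0.537 in psan, against at most -0.144 for other psan arrays, and from 0.401 to 0.601 in WT, against at most 0.0928 for other WT arrays. Results are therefore also given with these arrays averaged, as 3 against 3.

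PSB27 was brighter in psan and LPA19 was dimmer, so the Psb27-type genes differed between the genotypes in opposite directions. After quantile normalisation, the log2 fold change, psan minus WT, was 0.76 with a standard error of 0.22 for PSB27, and -1.77 with a standard error of 0.34 for LPA19. These correspond to 1.70-fold higher and 3.40-fold lower in psan. With like arrays averaged, the fold changes were the same, with larger standard errors of 0.34 for PSB27 and 0.49 for LPA19. Since the genes were chosen with this contrast known, these values are a description and carry no test.

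PSB27 had intensities of 2.77, 2.29, 2.65, 2.33, 1.77 and 1.81 on psan arrays 1 to 6, against 0.955, 0.775, 1.27, 1.06, 1.39 and 1.99 on WT arrays 1 to 6. The 4 psan arrays 1 to 4 lay above every WT array, while psan arrays 5 and 6 lay below WT array 6, which was the only WT array to reach into the psan range. The mean was 2.27 ± 0.414 in psan and 1.24 ± 0.429 in WT (SD, n = 6 each), a ratio of means of 1.83. With like arrays averaged, the intensities were 2.53, 2.49 and 1.79 in psan and 0.865, 1.17 and 1.69 in WT. The lowest psan average, 1.79, and the highest WT average, 1.69, both came from arrays 5 and 6 and lay close together.

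LPA19 had intensities of 0.262, 0.342, 0.185, 0.142, 0.508 and 0.492 on psan arrays 1 to 6, against 0.439, 0.368, 0.925, 0.967, 1.03 and 1.05 on WT arrays 1 to 6. WT arrays 3 to 6 were the high ones, and WT arrays 1 and 2 lay within the psan range, below psan arrays 5 and 6. The mean was 0.322 ± 0.154 in psan and 0.796 ± 0.308 in WT (SD, n = 6 each), a ratio of means of 0.404. With like arrays averaged, the intensities were 0.302, 0.163 and 0.500 in psan and 0.403, 0.946 and 1.04 in WT, and the groups still overlapped.

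**Figure D1:**
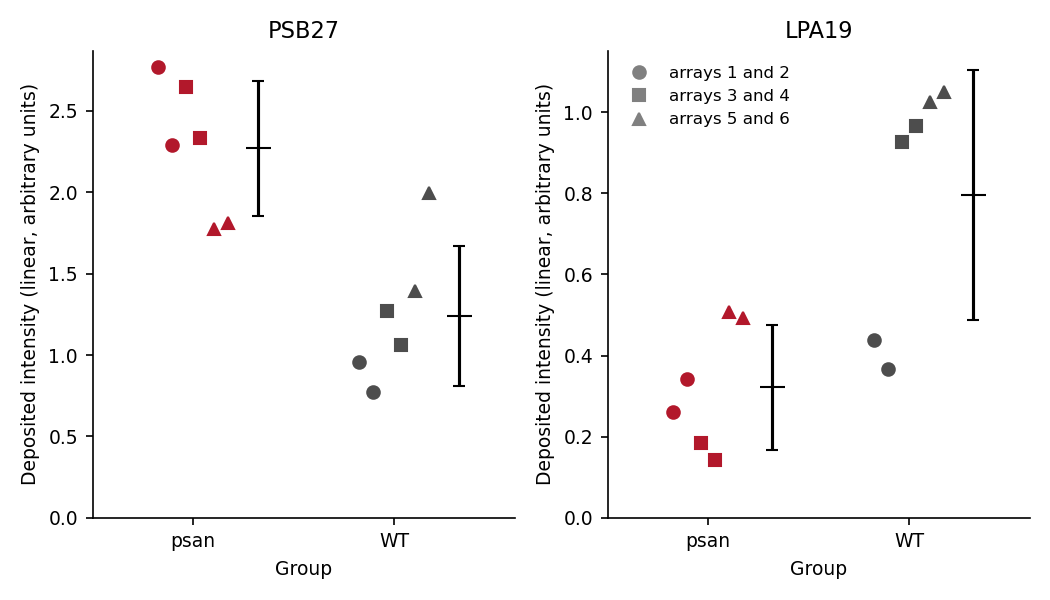
Deposited intensity of PSB27 and LPA19 (linear, arbitrary units) on each psan and WT array, with marker shapes for arrays 1 and 2, 3 and 4, and 5 and 6; the black bars give the mean and SD of the 6 arrays. PSB27 is higher in psan except that WT array 6, at 1.99, lies above psan arrays 5 and 6, and LPA19 is lower in psan except that WT arrays 1 and 2, at 0.439 and 0.368, lie among the psan arrays.

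WT arrays 1 and 2, the pair that overlapped with psan for LPA19, were also the WT arrays with the lowest LPA19 rank. They differed from the other WT arrays as a whole, with 14.5% and 15.1% of probes at 0, against 4.68% to 6.25%. Their median log2 intensity above 0 was -2.85 and -2.88, against -2.32 to -2.27 on the other WT arrays. The position of a probe among all probes of its array does not depend on the scale of that array. PSB27 stood at the 91.4th to 95.0th percentile of the psan arrays and at the 86.7th to 92.8th percentile of the WT arrays, so its rank was high in both genotypes. LPA19 stood at the 36.0th to 71.9th percentile of the psan arrays and at the 76.9th to 86.6th percentile of the WT arrays, with no overlap. After quantile normalisation, which also works through ranks, the LPA19 values were -3.02 to -1.17 in psan and -0.84 to 0.0095 in WT on the log2 scale, again with no overlap. Of all 3376 probes tested, 16.2% had groups that did not overlap after normalisation. PSB27 still overlapped on that scale, with 0.68 to 1.50 in psan and 0.025 to 0.97 in WT.

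The spread of LPA19 was the larger of the 2 in psan. On the normalised log2 scale the SD over the 6 arrays was 0.75 in psan and 0.37 in WT for LPA19, against 0.34 in psan and 0.34 in WT for PSB27. The LPA19 spread in psan followed the like arrays. Their normalised log2 values averaged -2.12, -2.82 and -1.19, while arrays within such a set differed by 0.043 to 0.44. For PSB27, the psan averages were 1.24, 1.41 and 0.70, with differences of 0.034 to 0.23 within a set. Psan arrays 5 and 6 thus held both the lowest PSB27 and the highest LPA19 values of the mutant, and of the psan arrays they were the nearest to WT for both genes.

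A ratio of the probes within each array is free of any factor that scales a whole array, but not of effects that differ with brightness or probe number. Its level has no meaning, because different probes bind with different strength, but its difference between groups shows unequal change. The log2 of PSB27 over LPA19, from the deposited intensities, was 3.40, 2.74, 3.84, 4.04, 1.80 and 1.88 on psan arrays 1 to 6, against 1.12, 1.08, 0.46, 0.14, 0.44 and 0.93 on WT arrays 1 to 6. Every psan array lay above every WT array. Since the genes were chosen with their opposite directions known, this separation and the differences below are a description and carry no test. The mean was 2.95 ± 0.97 in psan and 0.69 ± 0.40 in WT (SD, n = 6 each), a difference of 2.26 with a standard error of 0.43 on the log2 scale. After quantile normalisation the difference was 2.53 ± 0.46 (SE), which is 5.78-fold. It stayed between 2.17 and 2.79 under 25 alternatives, some of which could not move it. Averaging like arrays left it at 2.53 with a standard error of 0.71.

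**Figure D2:**
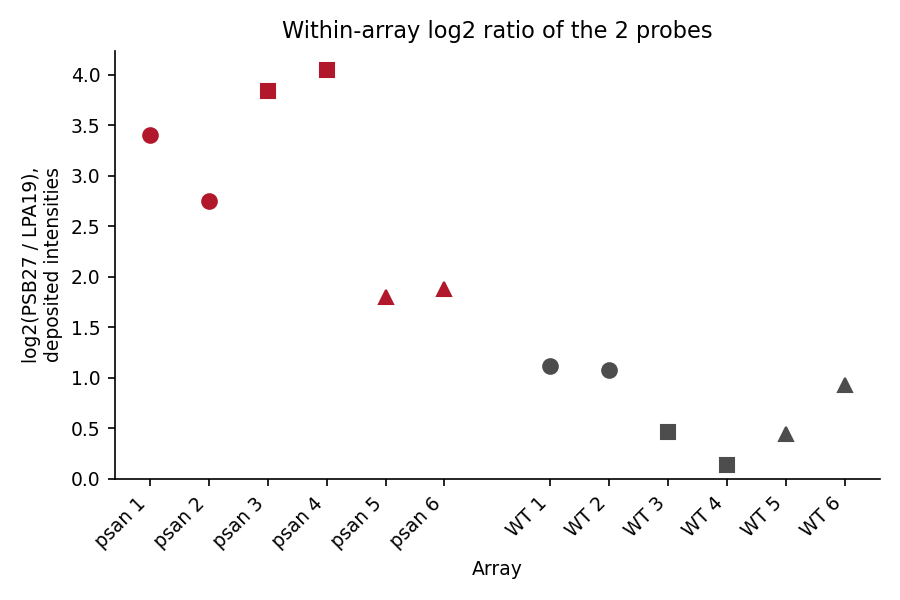
Log2 ratio of PSB27 to LPA19 from the deposited intensities (vertical axis) on each array, psan arrays 1 to 6 on the left and WT arrays 1 to 6 on the right; marker shapes give arrays 1 and 2, 3 and 4, and 5 and 6. The psan arrays lie between 1.80 and 4.04 and the WT arrays between 0.14 and 1.12.

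Across all probes, 29.9% passed limma's test at an adjusted p under 0.05 over 12 arrays, 14.3% as higher and 15.6% as lower in psan. Both genes were among them, which adds nothing, since the choice of the genes used this contrast. With like arrays averaged, 4.30% of all probes passed and neither gene did. PSB27 was also not among the passing probes with each array centred on its median, with the array number as a block, with like arrays as a random block or without WT arrays 1 and 2, while LPA19 was among them in each of these 4. In that order, 30.1%, 26.8%, 16.4% and 30.2% of all probes tested passed. These calls of the chosen genes likewise carry no test.

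The size of each fold change depended on the scaling. Before normalisation, the median log2 fold change of all probes tested was 0.46, and after quantile normalisation it was -0.015. PSB27 had 0.92 as deposited, 0.89 with cyclic loess and 0.24 ± 0.21 (SE) with median centring. Median centring takes the difference between the array medians from every probe, and the value it gave for PSB27 was close in size to its standard error. PSB27 belonged to the brightest 10% of the probes, and those had a median log2 fold change of only 0.018 as deposited. LPA19 had -1.34 as deposited, -1.69 with cyclic loess and -2.02 with median centring. It belonged to the eighth 10% by brightness, whose median as deposited was 0.30. The sign of neither gene turned under any of 25 alternatives, some of which could not move the fold change.

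**Figure D3:**
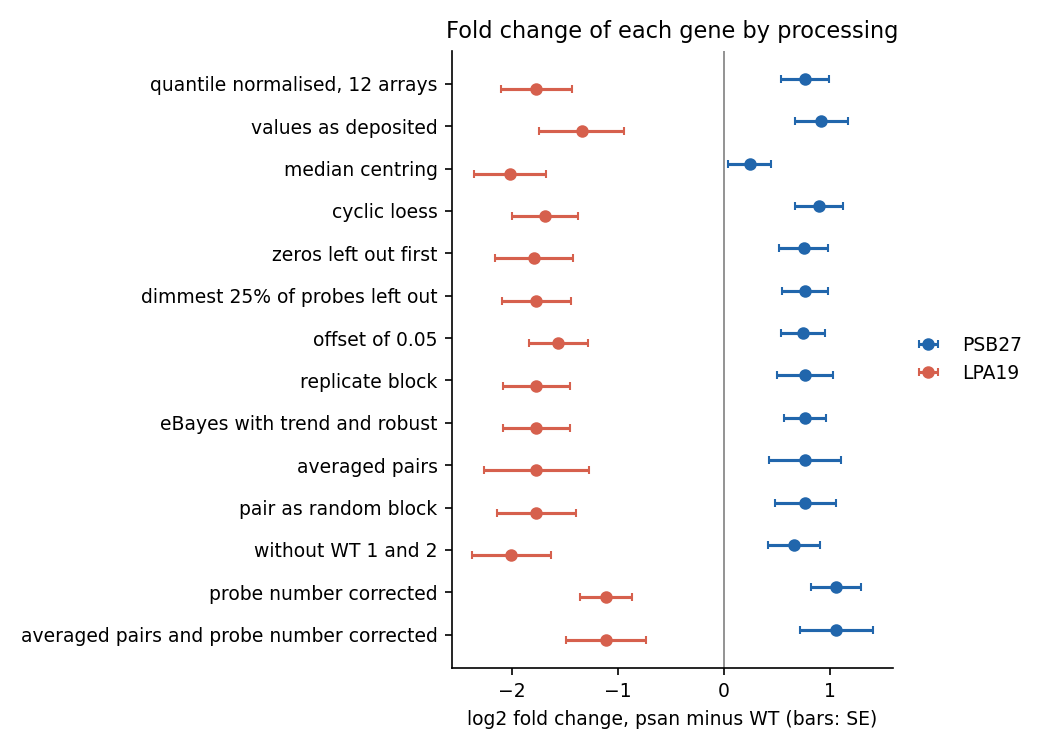
Log2 fold change, psan minus WT, of PSB27 and LPA19 (horizontal axis, bars show the SE) under quantile normalisation over 12 arrays and 13 alternatives. PSB27 lies above 0 throughout, nearest to it at 0.24 ± 0.21 (SE) with median centring. LPA19 lies below 0 throughout, nearest to it at -1.11 with the probe number corrected.

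Among all probes, LPA19 stood near the low end of the fold changes and PSB27 did not stand near the high end. Of all probes tested, 4.06% had a lower fold change than LPA19, and 2.08% of those in its brightness class did. As the genes were chosen with this contrast known, such positions are a description and carry no test. For PSB27, 23.2% of all probes had a higher fold change. The middle 80% of all probes lay between -1.30 and 1.52.

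The fold change of a probe also went with its number on the array, in a repeating pattern of 24 bins of 12 numbers each. LPA19 lay in the fourth bin, which had the lowest median log2 fold change of all bins, -0.75 over 145 probes, with 3 of these called higher and 63 called lower in psan. PSB27 lay in the first bin, with a median of -0.19 over 142 probes, 14 of them called higher and 30 lower. With the effect of the probe number removed from each array, LPA19 had -1.11 with a standard error of 0.25 and PSB27 had 1.05 with a standard error of 0.23. The LPA19 difference was thus smaller and the PSB27 difference larger after that correction, and the direction of both genes was kept.

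**Figure D4:**
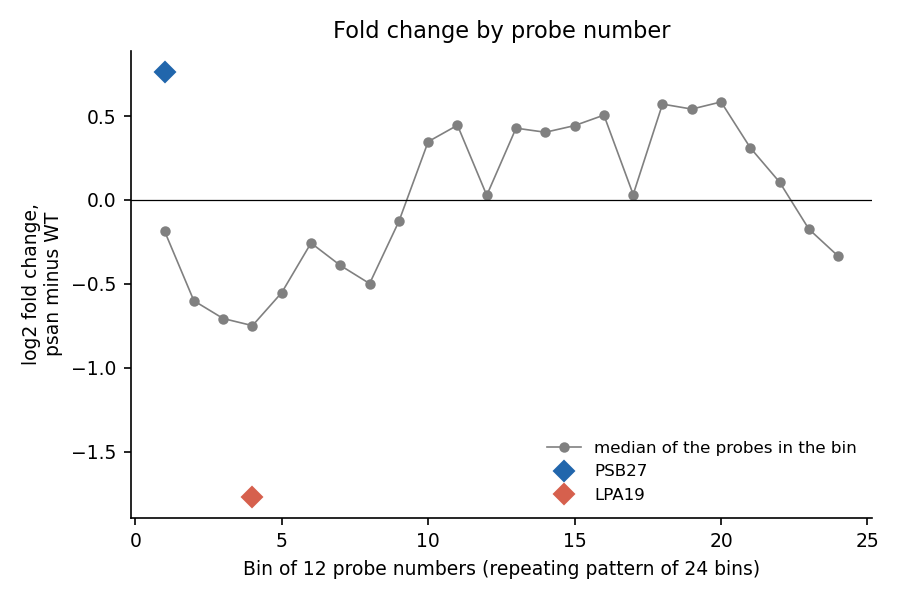
Median log2 fold change, psan minus WT, of the probes in each of 24 repeating bins of 12 probe numbers (grey line), with PSB27 and LPA19 as diamonds in their own bins. LPA19, at -1.77, lies in the bin with the lowest median, -0.75, and PSB27, at 0.76, lies above its bin's median of -0.19.

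Other genes of photosystem II assembly, of its subunits and of the lumen were taken from 3 lists that left out PSB27 and LPA19. A single-gene probe was found for 2 of 40 assembly and repair genes, 2 of 12 subunit genes and 6 of 49 lumen genes. Of these 10 genes, 3 rose, none fell and 7 did not pass, by limma's test adjusted over all probes. That is 30% called, against 29.9% of all probes. With like arrays averaged none of the 10 passed, and with like arrays as a random block none did either, the 3 genes that rose then having limma adjusted p from 0.0696 to 0.184.

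Neither assembly gene passed over the 12 arrays. AT5G46390, which encodes a peptidase of the family that trims the D1 precursor, had intensities of 0.275, 0.141, 0.126, 0.266, 0.133 and 0.200 on psan arrays 1 to 6, against 0.0175, 0.0997, 0.0667, 0.0623, 0.0854 and 0.0577 on WT arrays 1 to 6. All psan arrays were above all WT arrays as deposited, as was the case for 14.6% of all probes. Its log2 fold change after normalisation was 0.89 ± 0.35 (SE), with a limma adjusted p of 0.0750. WT array 2 decided that value, since without it the log2 fold change was 1.16 and the limma adjusted p 0.00800. It also passed as deposited (1.65, limma adjusted p = 0.00939), and it had 0.60 with the probe number corrected (limma adjusted p = 0.235).

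AT1G54500 encodes RBD1, a membrane-bound rubredoxin needed for photosystem II accumulation. Its intensity was 1.28 ± 0.231 in psan and 0.791 ± 0.232 in WT (SD, n = 6 each), and the groups overlapped. The log2 fold change was 0.54 ± 0.24 (SE) with a limma adjusted p of 0.107. It passed without WT array 2 (0.68, limma adjusted p = 0.0356), as deposited (0.73, limma adjusted p = 0.0383) and with the probe number corrected (1.03, limma adjusted p = 0.0127), but with median centring it had only 0.056 (limma adjusted p = 0.893). The list median was 0.71, beside -0.015 for all probes.

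Of the photosystem II subunits, PSBW, a small membrane subunit that stabilises photosystem II and its antenna, had an intensity of 28.4 ± 7.35 in psan and 29.6 ± 4.31 in WT (SD, n = 6 each). PSBY, another small membrane subunit, had 2.81 ± 0.586 in psan and 2.60 ± 0.954 in WT (SD, n = 6 each). Their log2 fold changes of -0.058 and 0.18 did not pass, and the groups overlapped for both. Neither has a settled direction, since median centring gave -0.76 for PSBW and -0.52 for PSBY, while correction for the probe number gave 0.45 for PSBW and 0.71 for PSBY. The list median of 0.062 became -0.64 by median centring and 0.58 by that correction.

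The 3 genes that rose encode lumen proteins. AT1G74070, which encodes the cyclophilin CYP26-2, a predicted prolyl isomerase, had intensities of 1.32, 1.29, 1.54, 0.931, 0.820 and 0.983 on psan arrays 1 to 6, against 0.488, 0.355, 0.613, 0.582, 0.676 and 0.599 on WT arrays 1 to 6. Every psan array lay above every WT array as deposited, as for 14.6% of all probes. The log2 fold change was 0.80 ± 0.20 (SE) with a limma adjusted p of 0.00980. Its probe lay in the bin with the highest median, 0.58, and with the probe number corrected its log2 fold change was 0.12 (limma adjusted p = 0.749). It also did not pass with median centring (0.37, limma adjusted p = 0.164).

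AT4G24930, which encodes a small thylakoid lumen protein, had intensities of 0.679, 0.435, 0.574, 0.420, 0.367 and 0.344 on psan arrays 1 to 6, against 0.171, 0.0404, 0.137, 0.181, 0.130 and 0.111 on WT arrays 1 to 6. All psan arrays were again above all WT arrays as deposited, as for 14.6% of all probes. The log2 fold change was 1.34 ± 0.29 (SE) with a limma adjusted p of 0.00443. With the probe number corrected it was 0.74 (limma adjusted p = 0.0690), and with like arrays averaged the limma adjusted p was 0.0767.

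AT5G52970, which encodes another thylakoid lumen protein, was listed at 0 on most arrays. Psan arrays 1 and 2 had 0.0429 and 0.0841 and WT arrays 5 and 6 had 0.00722 and 0.0106, while the other arrays of each group were at 0. Its log2 fold change of 4.56 ± 0.95 (SE; limma adjusted p = 0.0287) therefore rested on 2 arrays of each group. It did not pass without psan array 1 (4.96, limma adjusted p = 0.0773) or psan array 2 (4.15, limma adjusted p = 0.112), with cyclic loess (1.41, limma adjusted p = 0.142), with an offset that kept the zeros in (0.26, limma adjusted p = 0.411), with zeros left out first (2.19, limma adjusted p = 0.0510), or with eBayes set to trend and robust (limma adjusted p = 0.213).

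The other lumen genes did not pass. AT5G35100, which encodes the cyclophilin-like protein CYP28, had 0.448 ± 0.136 in psan and 0.190 ± 0.0856 in WT (SD, n = 6 each). As deposited, all its psan arrays were above all its WT arrays, as for 14.6% of all probes. Its log2 fold change was 0.71 ± 0.28 (SE; limma adjusted p = 0.0758), and it passed as deposited (1.35, limma adjusted p = 0.0168) and without psan array 2 (0.85, limma adjusted p = 0.0378), but had 0.37 with the probe number corrected (limma adjusted p = 0.346). AT1G76450, which encodes a PsbP-domain protein, was at 0 on 2 psan arrays and had a log2 fold change of -0.46 ± 0.24 (SE; limma adjusted p = 0.176) over the others. With the probe number corrected it passed as lower in psan (-0.89, limma adjusted p = 0.0195), whereas as deposited its sign was turned (0.21, limma adjusted p = 0.503). AT5G13410, which encodes the immunophilin FKBP19, was at 0 on 4 psan and 3 WT arrays, and its value of -0.50 ± 1.33 (SE; limma adjusted p = 0.819) carries no direction. The lumen list median was 0.76, against -0.015 for all probes. With the probe number corrected it was 0.25, a setting for which no median of all probes is given. None of the 11 marker genes for seed, embryo, root, flower and pollen had a single-gene probe, so the tissue was not checked here.

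**Figure D5:**
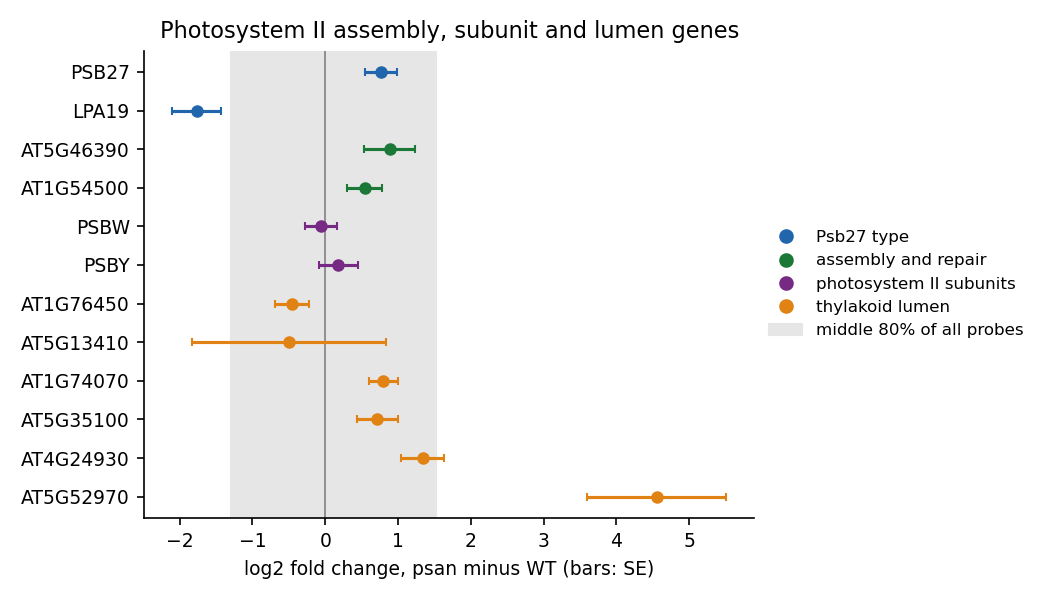
Log2 fold change, psan minus WT, after quantile normalisation (horizontal axis, bars show the SE) of PSB27, LPA19 and the 10 other genes of the 3 lists, coloured by list; the grey band holds the middle 80% of all probes, from -1.30 to 1.52. LPA19, at -1.77, and AT5G52970, at 4.56, are the genes outside the band, and the value of AT5G52970 rests on 2 arrays of each group.

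The variation among arrays of the same genotype was not used to choose the genes. After the group means were removed, PSB27 and LPA19 correlated with r = -0.42 over the 12 arrays and -0.51 over the 6 averages of like arrays, as a description. Of 426 other single-gene probes, 14.1% had a lower r to PSB27 over the 12 arrays, so this value was not extreme. Within psan r was -0.92 and within WT it was 0.56, each over 6 arrays that may stand for only 3 samples. Whether r differs between the genotypes was not tested.

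Among 427 other single-gene probes above 0 on all arrays, those closest to PSB27 in these deviations were AT2G47360 with r = 0.85, AT3G50130 with 0.76, AT5G10920, an argininosuccinate lyase of arginine synthesis, with 0.76, AT1G67930, a Golgi transport complex protein, with 0.72, and AT3G16760 with 0.71. The median r to PSB27 was -0.071. AT2G47360 was also the closest over the 6 averages, with 0.94, where the others named ranked 7, 5, 2 and 19 in that order. The log2 fold change of AT2G47360 between the genotypes was 0.017, beside 0.76 for PSB27.

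LPA19 had closer matches. AT2G25870, which encodes a plastid YbeY-type ribonuclease, had r = 0.94, AT4G30680 had 0.93, AT4G30740 had 0.92, AT2G15440 had 0.89 and AT4G05070 had 0.88, where the median of all was 0.029. Over the 6 averages of like arrays, these genes ranked 5, 3, 7, 6 and 18 in their r to LPA19. Their log2 fold changes were -0.89, -1.43, -0.70, -0.15 and -0.20. The probe of AT4G30740 was numbered only 4 away from that of LPA19, and AT4G05070 lay in the same bin of numbers. All these arrays share their scaling and the sets of like arrays, and 12 arrays give few independent points.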

How the data were processed

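The files hold intensities, deposited on a linear scale for 12 arrays. The authors' extraction and scaling steps are not given here. Groups and array numbers come from the sample titles. Probes were named only where the platform annotation gives 1 gene symbol (692 of 3439, 870 having several and 1877 none here). For 690 of them the locus was found in the TAIR10.1 table, from which only names were taken. The genes and lists were chosen with earlier results of these data known.

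After quantile normalisation, values deposited as 0 were left out. The log2 values of the 3376 probes above 0 on at least 1 array of each group were then compared as psan minus WT, two-sided, by lmFit and eBayes of limma 3.58.1 under R 4.3.3. Benjamini-Hochberg adjustment ran over these probes, with a threshold of 0.05. The standard error of the PSB27 to LPA19 difference came from the spread of each group's within-array ratios. Percentiles are mid-ranks among all 3439 probes of an array. Named were PSAN, both genes, every tested list member, and the 5 closest single-gene probes to each gene. Alternatives covered scaling, zeros, dim probes, an offset of 0.05, eBayes, pairing, left-out arrays and the probe number, whose effect on each array was removed by a fit of bin and place within the bin. Array numbers were not taken as pairing the groups, and same-numbered arrays correlated from -0.155 to 0.228 in their deviations. Pairing of the sets of like arrays across the groups was not tested. Figures were drawn with matplotlib 3.10.9.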

Additional observations from a re-analysis of the deposited data

Results flagged for a closer look

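For the 23 named genes, each group in which all 6 arrays were above 0 was searched for an array that stood apart from the others. This covered 41 groups and found 2 such arrays, and about 2.05 would come by chance. For AT5G46390, WT array 2 had a normalised log2 signal of -2.26 while the rest of WT ran from -4.23 to -3.66, which left a gap of 0.712 of the whole range. For AT3G16760, WT array 2 had -2.51 while the rest of WT ran from -1.89 to -1.64, with a gap of 0.707. Neither PSB27 nor LPA19 had such an array in either group.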

How the results depend on the processing

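PSB27, LPA19 and their difference kept their signs under all 25 alternatives, but some of these could not move the estimates. Leaving out dim probes, the array number as a block and the other eBayes setting left them as they were by design. So did averaged pairs alone and like arrays as a random block. For the difference, median centring could not depart from the values as deposited. By more than the pooled SD within groups (0.34 for PSB27 and 0.59 for LPA19, log2), PSB27 moved with median centring, to 0.24 ± 0.21 (SE). By the same rule LPA19 moved with the probe number corrected (-1.11, with or without averaged pairs). Leaving out each array gave 0.69 to 0.89 for PSB27, -1.94 to -1.57 for LPA19 and 2.30 to 2.79 for their difference. PSAN passed under all 25, with limma adjusted p from 1.71e-08 to 0.0327. The 1010 probes past the threshold were 145 with averaged pairs, 553 with like arrays as a random block, 15 with averaging plus probe-number correction, and 586 at an adjusted p under 0.01. Averaging leaves fewer samples. Otherwise the cause was not tested. The array number as a replicate block gave 894 probes, left the fold changes at 0.76 and -1.77, and changed no call of a list member that it could fit. As 4 of 12 arrays matched their own number best, numbers are not taken as pairing, though this does not exclude it. The assembly and repair list, with 0 calls, had 2 as deposited, 2 without WT 1 and 2, 1 with the probe number corrected and 0 to 2 with each array left out. The lumen list, with 3 calls, had 0 with averaged pairs, 0 with like arrays as a random block and 0 with averaging plus probe-number correction. The subunit list had 0 calls throughout.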
